A study of Mus musculus with 3 samples.

Results

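Broad differences between the mTOR chromatin immunoprecipitation (ChIP) and a rabbit immunoglobulin G (IgG) control were described along the 19 autosomes of mouse liver, apart from the narrow peaks of the mTOR track. Chromosomes were divided into windows of 10 kb and of 1 Mb, and each window received the mean coverage of each library, with positions in no interval counted as 0. Bins of 200 bp with IgG coverage above 10 were left out, as were windows in which IgG covered under 80% of the bases. Positions are in mouse build mm9, which the submitters' processing notes name. This kept 225251 of 247223 windows of 10 kb and 2338 of 2463 windows of 1 Mb. The filter on windows used the IgG track, the denominator of the ratio, and no mTOR value. The domains and extreme windows named further on were chosen by their mTOR/IgG ratio, and their ratios are given as description only.

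ChIP-seq was made from the liver of male C57Bl/6 mice, 2 to 3 months of age, with 1 library for mTOR, 1 for the estrogen-related receptor ERRα and 1 for IgG. The mTOR and ERRα libraries each pooled 8 immunoprecipitations from a chromatin pool of 26 livers; the labels name no such numbers for the IgG control. No treatment is named in the labels of these libraries. Whole liver holds several cell types, and a ChIP track cannot tell a difference in some cells from a smaller difference in all of them. The track headers gave 62500000 tags for mTOR, 74200000 for ERRα and 68800000 for IgG. With 1 library a group there is no replicate and no test: every ratio compares these libraries, and intervals cover counting error only.

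mTOR is a serine/threonine kinase, the catalytic core of the complexes mTORC1 and mTORC2, best known for coupling nutrient and growth factor signals to protein synthesis at the lysosome surface. It has also been found in the nucleus, at genes transcribed by RNA polymerase III among others. In a ChIP-seq experiment an IgG control records how much of each stretch of chromatin is sheared, recovered and mapped without a specific antibody target. Mammalian chromosomes alternate over long distances between gene-rich, accessible chromatin and gene-poor, compact chromatin, so a control track is itself uneven. A broad ratio of ChIP to control therefore describes a different property from a peak, which marks a site.

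At the scale of 1 Mb the 3 tracks followed the same landscape, but the mTOR track had more contrast than IgG. Coverage is given in the authors' units, tags per position scaled to 10000000 tags. From the 5th to the 95th percentile of 1-Mb windows, mTOR coverage ran from 0.438 to 0.746, a 1.71-fold range. IgG ran from 0.480 to 0.691, a 1.44-fold range, and ERRα from 0.434 to 0.775, a 1.79-fold range. The mTOR level rose more steeply than the IgG level: across 1-Mb windows the slope of log2 mTOR on log2 IgG was 1.34, where a slope of 1 would be a constant ratio. The slope was 1.22 over 100-kb windows and 1.05 over 10-kb windows, in which counting error in IgG is larger. With focal mTOR regions left out the 1-Mb slope was 1.31, and that of ERRα on IgG, with focal regions in, was 1.44. The Spearman correlation of mTOR and IgG levels over the 2338 windows was 0.950; all windows share the 2 libraries and how readily their sequence is mapped.

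The log2 ratio of mTOR to IgG was set to 0 at the median window, which lay at -0.037 on the authors' scale for 10-kb windows and at -0.026 for 1-Mb windows. A window of 10 kb held a median of 245 mTOR tags and 276 IgG tags, so that counting alone gives a standard deviation of 0.13 in the log2 ratio. The observed standard deviation was 0.21, and 0.18 when taken from the quartiles. At 1 Mb counting alone gives 0.013, and the observed value was 0.10. The variation at 1 Mb was thus small in size and 7.97 times the counting error, while at 10 kb counting error made up 54.2% of the variance taken from the quartiles.

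The distribution was not symmetric. Over 1-Mb windows the 5th and 95th percentiles of the ratio were 0.917-fold and 1.14-fold of the median window, and the extremes were 0.880-fold and 1.54-fold. Losses had a floor close to the bulk, and gains had a long tail.

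**Figure D1:**
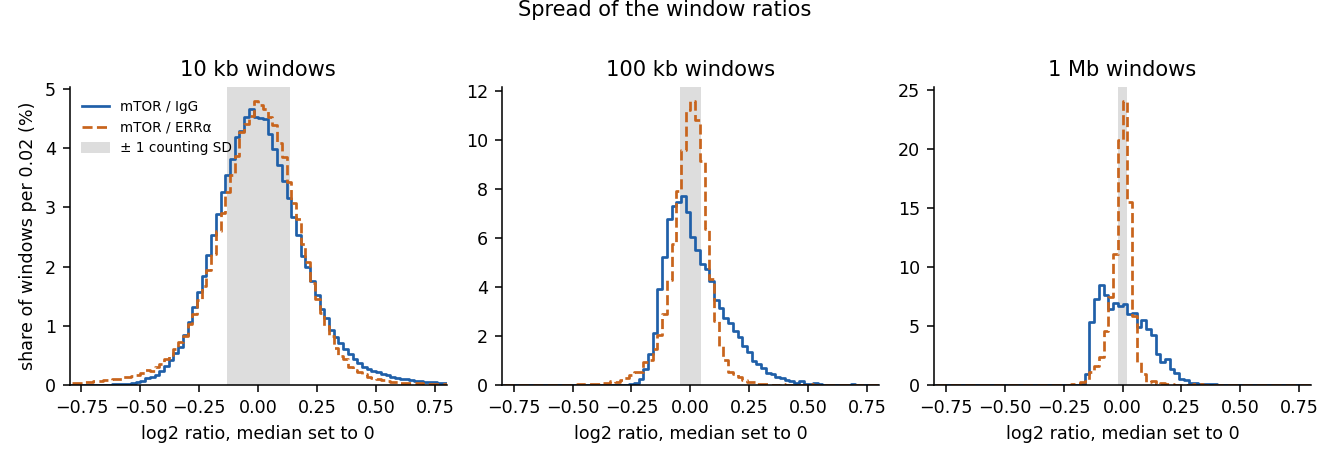
Share of windows (vertical axis, %) by log2 ratio (horizontal axis, median set to 0) for 10-kb, 100-kb and 1-Mb windows; the blue line is mTOR over IgG, the dashed orange line mTOR over ERRα, and the grey band 1 counting SD either side. At 1 Mb mTOR over IgG spreads with an SD of 0.10 and a tail to the right, while mTOR over ERRα has an SD of 0.050.

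Windows past a fixed fold were counted in each direction. At 10 kb, 14040 windows had a ratio at least 25% above the median, which is 6.23% of all windows tested, and 6493 had one at least 20% below it, the same step on the log scale (2.88%). At 1.5-fold there were 2852 higher (1.27%) and 279 lower (0.124%). At 100 kb, 4264 windows were at least 1.1-fold higher (18.2%) and 1148 lower (4.9%). At 1 Mb, 272 windows were at least 1.1-fold higher (11.6%) and 35 were at least 1.1-fold lower (1.5%). The excess of higher over lower windows depended on the centring: on the authors' scale, without centring, 195 windows of 1 Mb were higher and 219 lower, so that the share of higher among called windows went from 88.6% to 47.1%. For 10-kb windows this share went from 68.4% to 51.1%. The longer upper tail is a matter of shape, which centring leaves as it is. Much of this tail went with focal mTOR regions, which are set apart further on. Around the median, 14 windows of 1 Mb were at least 25% above the median (0.599%) and 0 at least 20% below it (0.0%).

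Most of the higher 1-Mb windows were raised over most of their length. Among the 272 windows, a median of 81.5% of their 10-kb windows had a ratio above that of the median window, with quartiles of 75.5% and 86.1%. The lowest share was 37.2%, at chr9:82000001-83000000, where 2 focal regions lay. In the 35 lower windows the median share of 10-kb windows above the median was 18.1%, and it ran from 9.57% to 26.1%. The ratio over the same sequence chose these windows. A high share in the higher ones and a low share in the lower ones is thus partly given by the rule. The higher windows were spread over all 19 autosomes and the lower ones over 13 of them.

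The 5 highest windows of 1 Mb lay on chromosomes 19, 13, 5 and 11. In chr19:3000001-4000000 coverage was 0.887 in mTOR, 0.725 in ERRα and 0.588 in IgG, so that the mTOR ratio was 1.54-fold of the median window (Clopper-Pearson 95% interval 1.51 to 1.56). Next was chr13:23000001-24000000, with 0.746 in mTOR, 0.559 in ERRα and 0.520 in IgG, or 1.46-fold (1.44 to 1.48). In chr5:125000001-126000000 the levels were 0.851, 0.804 and 0.632, and the ratio was 1.37-fold. Only in the chromosome 5 window of these 3 did ERRα come near the mTOR level. The remaining 2 were chr11:68000001-69000000 at 1.347-fold and chr13:21000001-22000000 at 1.31-fold, where ERRα was at 1.08-fold and 1.04-fold over IgG on the same centred scale.

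The 5 lowest windows of 1 Mb lay on chromosomes 2, 1 and 4, and all 5 held no focal mTOR region. Of all 2338 windows of 1 Mb, 701 held none. Focal regions raise the ratio by which the lowest windows were chosen, so their absence there is partly given by the choice. At chr2:111000001-112000000 coverage was 0.414 in mTOR, 0.396 in ERRα and 0.479 in IgG, so that the mTOR ratio was 0.880-fold of the median window (0.862 to 0.898). At chr2:140000001-141000000 the levels were 0.490, 0.490 and 0.564, or 0.885-fold (0.869 to 0.901). The other 3, chr2:99000001-100000000, chr1:148000001-149000000 and chr4:27000001-28000000, were at 0.889-fold to 0.896-fold. In each of the 5 both ChIPs were below IgG, and the mTOR to ERRα ratio was between 0.983-fold and 1.05-fold of its own median.

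To find broad stretches that do not follow 1-Mb borders, the ratio was averaged over 11 neighbouring windows of 10 kb. A domain was a stretch of at least 200 kb in which this running mean stayed at least 1.1-fold above or below the median. There were 545 gain domains over 194.7 Mb and 71 loss domains over 18.0 Mb, which took 8.52% and 0.749% of the 10-kb windows. Gains had a median length of 280 kb and reached 1980 kb, with 11 of 1000 kb or more. Losses had a median length of 230 kb and reached 670 kb. Without centring there were 329 gains and 398 losses, so that the share of gains went from 88.5% to 45.3%. Inside a gain domain a median of 91.3% of the 10-kb windows lay on its side of the median, and inside a loss domain 90.9%. The running mean of these same windows chose the domains, so a high share is largely given by the rule. The step was small: the median gain domain was at 1.20-fold (quartiles 1.17 and 1.22) and the median loss domain at 0.880-fold (0.874 and 0.888).

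The longest gains were on chromosomes 10, 17, 12 and 19. In chr10:79120001-81100000 coverage was 0.902 in mTOR, 0.966 in ERRα and 0.713 in IgG, and the mTOR ratio was 1.30-fold (1.28 to 1.31); 98.0% of its 10-kb windows were above the median. The second, chr10:126340001-128120000, was at 1.28-fold with levels of 0.783, 0.785 and 0.628. Both are high in ERRα as well as in mTOR. The other 3 were chr17:45660001-47170000 at 1.21-fold, chr12:112030001-113420000 at 1.20-fold and chr19:3280001-4640000 at 1.44-fold.

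The 5 steepest gains were shorter, at 230 to 370 kb, and held 29.7 to 92.0 focal regions per Mb. The 5 longest held 15.8 to 31.8 per Mb, so the ranges overlapped. At chr13:23460001-23710000 mTOR coverage was 1.485, against 0.644 in ERRα and 0.578 in IgG, which was 2.64-fold (2.56 to 2.72), and 23 focal regions lay within its 250 kb. At chr13:21200001-21430000 it was 2.07-fold, at chr14:51510001-51770000 2.03-fold, at chr13:21960001-22190000 1.92-fold and at chr11:68620001-68990000 1.90-fold. With focal regions left out these 5 steepest gains fell to values between 1.05-fold and 1.14-fold, so that most of their rise lay in the focal regions and their flanks. The 5 longest were then at 1.16-fold to 1.22-fold.

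The longest loss was chr2:110730001-111400000, where coverage was 0.422 in mTOR, 0.406 in ERRα and 0.505 in IgG, or 0.858-fold (0.837 to 0.880). It was followed by chr14:109390001-109910000 at 0.886-fold and by 3 further stretches of chromosome 2, chr2:138620001-139020000, chr2:99650001-100000000 and chr2:108120001-108430000, at 0.886-fold, 0.878-fold and 0.857-fold. The deepest losses, chr2:176890001-177160000 at 0.793-fold and chr7:9610001-9820000 at 0.823-fold, had IgG levels of only 0.244 and 0.197. Values in the tracks come in steps of 0.1, so these levels are coarse.

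Neighbouring windows resembled each other over distances far longer than a peak. The Pearson correlation between the ratios of 10-kb windows was 0.334 at a distance of 10 kb over 216017 pairs, 0.241 at 100 kb, 0.124 at 1000 kb and 0.033 at 5000 kb. Between 1-Mb windows it was 0.602 at 1 Mb (2285 pairs), 0.420 at 2 Mb and 0.166 at 5 Mb. Removing focal regions left these values at 0.325 for 10 kb and 0.646 for 1 Mb. The pairs share the same libraries, and the values are descriptions without a test.

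Focal mTOR regions were then set apart from the broad level. A focal region was a run of 200-bp bins in which mTOR plus 0.2 was at least 3 times IgG plus 0.2 and mTOR exceeded 1.98, the level reached by the top 0.1% of IgG bins. There were 9198 such regions on the autosomes, spanning 3235 kb and holding 1.17% of the mTOR coverage. Leaving them out with 1 kb on either side removed 0.845% of all bins. The standard deviation of the 1-Mb ratio went from 0.10 to 0.083, still 6.41 times the counting error. The skewness, a measure of asymmetry, went from 0.74 to 0.38 at 1 Mb and from 1.75 to 0.052 at 10 kb. At 1.5-fold, 742 windows of 10 kb were then higher (0.329%) and 273 lower (0.121%). At 1 Mb, 0 windows (0.0%) were still at least 25% above the median. Of the 272 higher 1-Mb windows, 163 stayed past 1.1-fold and of the 35 lower windows 14 did, while the median window itself went from -0.026 to -0.037 on the authors' scale. In all, 164 windows of 1 Mb were higher (7.01%) and 14 lower (0.599%) without focal regions. At 10 kb, 10397 windows were then higher (4.62%) and 6280 lower (2.79%), and 10084 of the 14040 and 6228 of the 6493 called before were among them. Peaks below the call level stay in these values.

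The highest windows lost much of their excess. Focal coverage is part of the ratio that ranked them, so this fall is partly given by the choice. In the 272 higher windows a median of 30.6% of the mTOR excess over the scaled IgG level came from focal regions with their flanks, with quartiles of 21.2% and 41.7%, and in 42 windows it was 50% or more; the share passes 100% where the rest of a window lies below the scaled IgG level. In chr19:3000001-4000000 the share was 78.6%, and the ratio went from 1.54-fold to 1.13-fold without the 22 focal regions. In chr13:23000001-24000000, with 26 focal regions, the share was 97.0% and the ratio went to 1.02-fold. In chr13:21000001-22000000 it went to 1.01-fold, in chr11:68000001-69000000 to 1.08-fold and in chr5:125000001-126000000 to 1.18-fold.

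Without focal regions other windows led. The highest was chr10:80000001-81000000 at 1.21-fold, against 1.27-fold with them, and coverage there was 0.897 in mTOR, 0.972 in ERRα and 0.719 in IgG. Next were chr10:79000001-80000000, chr10:127000001-128000000, chr11:120000001-121000000 and chr5:115000001-116000000, at 1.19-fold to 1.20-fold. In these 5 windows at least 90.0% of the 10-kb windows were above the median. In all 5 the ERRα level was above the mTOR level, and the mTOR to ERRα ratio was 0.923-fold to 0.993-fold of its median.

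**Figure D2:**
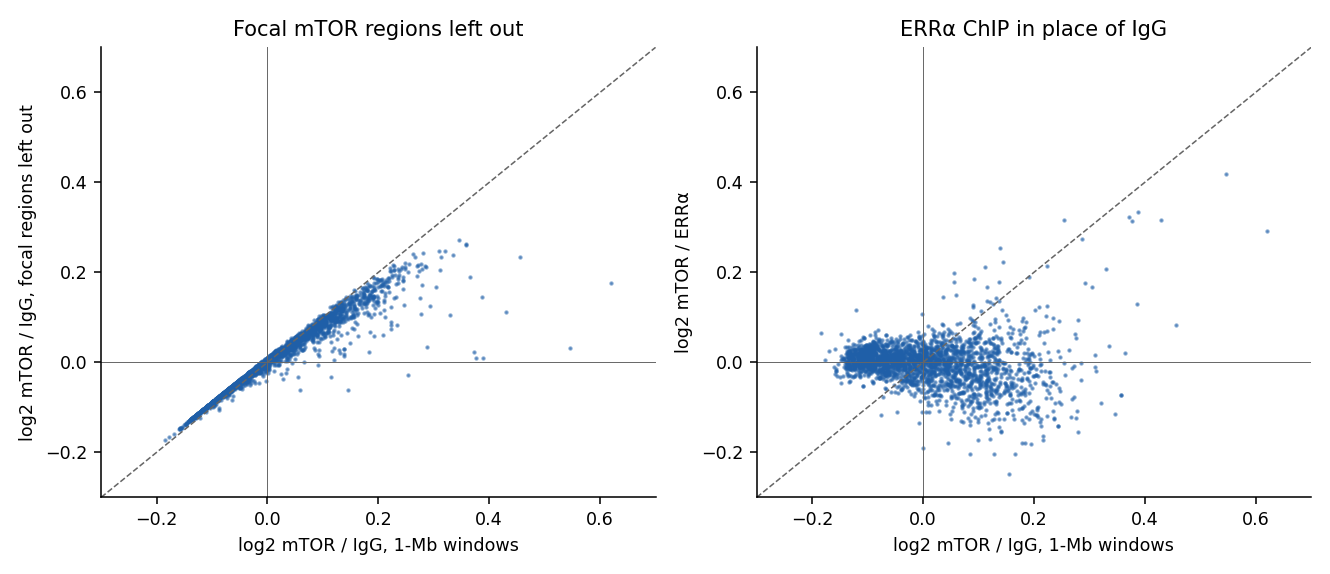
Each point is 1 of 2338 windows of 1 Mb; the horizontal axis is log2 mTOR over IgG, and the vertical axes are the same ratio with focal mTOR regions left out (left) and log2 mTOR over ERRα (right), with a dashed line of equality. On the left most windows stay near the line and the few highest drop, such as the window at 0.62 that goes to 0.18; on the right most points lie near 0, and 4 of the 5 windows highest over IgG lie between 0.29 and 0.42.

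Focal regions and the broad level went together. Windows of 1 Mb were grouped by their number of focal regions, and the ratio was taken with those regions left out. The 701 windows with no focal region had a median log2 ratio of -0.083, and 3.85% of them were above 0. The 489 windows with 3 to 5 focal regions were at 0.029, and the 227 windows with 11 or more were at 0.13, of which 99.6% were above 0. Focal regions were called on the same mTOR and IgG tracks, so a window with a higher ratio passes the call more easily and peaks below the call level stay in; this order is partly given by the rule. Gain domains held 17.9 focal regions per Mb, the rest of the genome 2.75 per Mb, and the 71 loss domains held none; focal regions add to the ratio that chose these domains. When the domains were called with focal regions left out, 395 gains and 58 losses remained, and the gains still held 16.7 focal regions per Mb against 3.26 per Mb elsewhere and 0.0726 per Mb in losses. The length shared by both sets of domains was 67.0% of the gain length and 80.4% of the loss length found with focal regions in, and 97.8% and 98.6% of the length found without them. How far the number of peaks bears on the broad level was not tested.

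The ERRα ChIP, against a nuclear receptor known for its control of energy metabolism genes, was used to ask whether the broad pattern was particular to mTOR. Both ChIPs were divided by the same IgG library, so their ratios are given side by side and not related to each other. At 1 Mb, 397 windows were at least 1.1-fold higher in ERRα over IgG (17.0%) and 89 lower (3.81%), against 272 and 35 for mTOR. In gain domains, chosen on mTOR and IgG, the median 10-kb window had 0.748 in mTOR, 0.742 in ERRα and 0.652 in IgG. Outside domains these levels were 0.576, 0.571 and 0.597, and in loss domains they were 0.450, 0.457 and 0.523. ERRα, which had no part in choosing the domains, thus had a median close to that of mTOR in all 3 classes. Single gain domains differed more: in 46 of the 545 mTOR was at least 1.1-fold above ERRα on the centred scale, and in 88 it was as far below. In the 71 loss domains both counts were 0.

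Dividing mTOR by ERRα, with IgG in neither term, left less broad variation. The standard deviation of the 1-Mb ratio was 0.050, against 0.10 for mTOR over IgG, and 0.035 against 0.12 when taken from the quartiles. It was still 3.95 times the counting error, and 3.62 times without focal mTOR regions. Neighbouring 1-Mb windows had a Pearson correlation of 0.266 in this ratio (2285 pairs), and of 0.423 without focal mTOR regions. ERRα peaks stayed in both values, so they cannot tell a broad difference between the ChIPs from peaks that cluster. Only 24 windows of 1 Mb were at least 1.1-fold higher in mTOR (1.03%) and 22 lower (0.941%). At 10 kb, 8402 windows were at least 25% above the median of this ratio (3.73%) and 12288 as far below it (5.46%). The 10-kb windows called 20 gain domains and 64 loss domains for mTOR over ERRα, against 545 and 71 over IgG. The 64 were not losses over IgG. Over IgG, on the centred scale, mTOR was at 0.994-fold to 1.32-fold in them and ERRα at 1.22-fold to 1.85-fold. Without focal mTOR regions 8 gain domains were called, and 91 loss domains; ERRα peaks stayed in, which lowers this ratio where they lie.

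All 24 windows in which mTOR exceeded ERRα held at least 2 focal mTOR regions. Of all 2338 windows of 1 Mb, 701 held none and 521 held 1 to 2. Focal mTOR coverage adds to the ratio that chose these 24 windows, so their focal regions are partly given by the choice. The highest were chr13:23000001-24000000 at 1.34-fold, chr13:21000001-22000000 at 1.26-fold, chr14:51000001-52000000 at 1.251-fold, chr13:22000001-23000000 at 1.246-fold and chr11:68000001-69000000 at 1.245-fold. The 24 windows held a median of 10.5 focal regions, and their median ratio went from 1.16-fold to 1.02-fold when focal regions were left out. The 3 that stayed at 1.1-fold or more were chr17:22000001-23000000, chr12:20000001-21000000 and chr18:37000001-38000000, at 1.11-fold to 1.12-fold.

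Across the edges of gain domains both ChIPs stepped up and IgG did not. The edges of the 151 gain domains of 400 kb or more were aligned, with focal regions left out and each level divided by that of its median window. In the first 200 kb inside, mTOR coverage averaged 125%, ERRα 129% and IgG 109%. Between 50 and 150 kb outside, the values were 117%, 120% and 109%, and they were 117%, 120% and 108% between 300 and 400 kb outside. The domains thus lay in surroundings that were already above the median window in every library. The mTOR and IgG tracks set the position of the edge through the running mean, so their step there is partly given by the choice, while ERRα took no part in it.

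**Figure D3:**
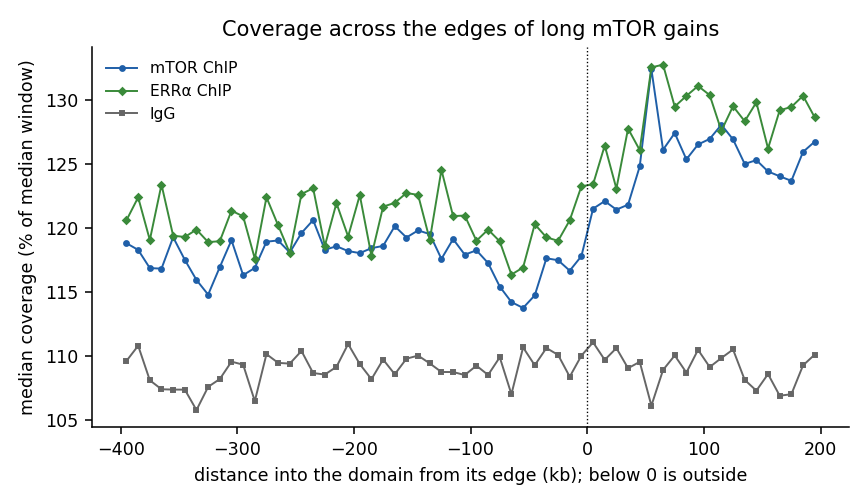
Median coverage as a percentage of the median 10-kb window (vertical axis) against distance from the edge of a gain domain (horizontal axis, kb, inside to the right), over up to 302 edges of 151 domains, with focal mTOR regions left out. mTOR and ERRα rise from 117% and 120% outside to 125% and 129% inside, and IgG stays at 109%.

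The ratio of mTOR to IgG was tied to the coverage level itself. When 1-Mb windows were divided into 10 equal groups by IgG level, the median log2 ratio rose in each of the 9 steps, from -0.10 in the lowest group (0.931-fold) to 0.096 in the highest (1.07-fold). The lowest group had a median IgG level of 0.480 and an mTOR level of 0.437, and the highest 0.691 and 0.733, so that mTOR was below IgG in poorly covered sequence and above it in well covered sequence. For 10-kb windows the difference between these groups was only 0.039 on the log2 scale. IgG is the denominator of the ratio, so counting error in IgG pulls this slope downwards within a window, most of all in small windows.

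Other splits that avoid this gave larger differences at 10 kb. Grouped by the IgG level of both neighbouring windows, the 10-kb ratio rose by 0.16 from the lowest to the highest group, in 9 of 9 steps. Grouped by the ERRα level of the same window it rose by 0.24, also in 9 of 9 steps. At 1 Mb the differences were 0.21 and 0.27. With focal regions left out they were still 0.18 and 0.23 at 1 Mb. The ratio of mTOR to ERRα went the other way, from 0.015 in the lowest IgG group of 1-Mb windows to -0.029 in the highest.

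**Figure D4:**
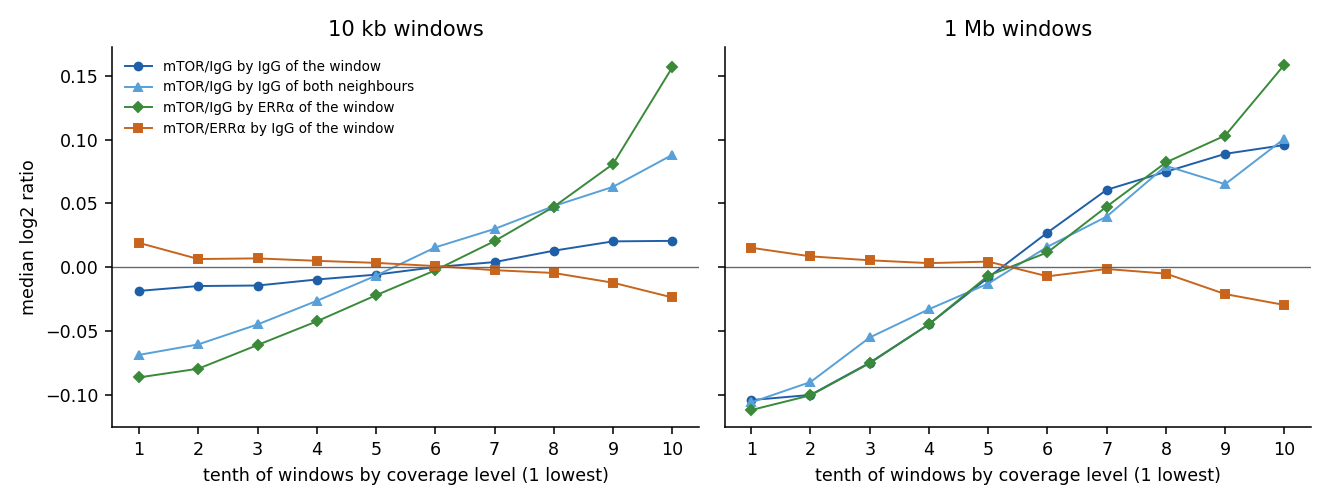
Median log2 ratio (vertical axis) in 10 equal groups of windows ordered by coverage (horizontal axis, 1 lowest), for 10-kb windows (left) and 1-Mb windows (right); colours and markers give the ratio and the library that set the order. At 1 Mb the 3 mTOR over IgG lines rise from between -0.11 and -0.10 to between 0.096 and 0.16, while mTOR over ERRα falls from 0.015 to -0.029.

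A count of ERRα regions of high coverage, taken from a library outside the ratio, followed the same order. ERRα regions were runs of bins in which ERRα plus 0.2 was at least 3 times its mean plus 0.2; IgG served only to leave out bins above 1.98. In the fifth of 1-Mb windows with fewest of these regions (0 to 1 per window) the median log2 mTOR/IgG without focal mTOR regions was -0.095, with quartiles of -0.11 and -0.078. In the fifth with most of them (21 to 88) it was 0.11, with quartiles of 0.082 and 0.15. The quartile ranges of these groups did not overlap. The cut used no local level, so a window with a higher broad ERRα level passes it more easily. The count is therefore not separate from the split by ERRα level above. Gain domains held 44.2 such ERRα regions per Mb, loss domains 0.415 and the rest 9.58.

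Whole chromosomes differed little beside the variation within them. Median ratios of 10-kb windows ran from -0.029 on chromosome 3 to 0.047 on chromosome 11, a range of 0.076, while the distance between quartiles within a chromosome was at least 0.22. Chromosomes 11 and 19 stood highest, at 1.03-fold each, and chromosomes 9 and 17 followed at 1.01-fold. Chromosomes 3, 14 and 1 were lowest, at 0.980-fold, 0.985-fold and 0.985-fold. On chromosome 11, 35 of 118 windows of 1 Mb (29.7%) were higher and none lower, and on chromosome 3, 8 of 155 (5.16%) were higher and 5 lower. Gain domains took 18.5% of the 10-kb windows of chromosome 11 and 3.62% of those of chromosome 1. Medians of mTOR over ERRα ran from -0.018 on chromosome 9 to 0.012 on chromosome 2.

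Chromosomes with more genes per Mb had higher median ratios. The number of protein-coding genes per chromosome was counted in a RefSeq table of assembly GRCm38.p6 and divided by the length covered by IgG; no gene position was used. Over the 19 autosomes the Pearson correlation of the median ratio with this density was 0.755 and the Spearman correlation 0.72, given without a p because the chromosomes share both libraries. Chromosome 11 had 13.8 genes per Mb, chromosome 19 had 12.4, and chromosome 3 had 6.47. Chromosome 7 had the highest density, 15.3 genes per Mb, but a median ratio of only 1.01-fold, and chromosome 2 with 10.3 genes per Mb was at 0.994-fold. These 2 chromosomes carried the most olfactory and vomeronasal receptor genes (Olfr, Vmn1r and Vmn2r), 417 and 287 of the 1456 on autosomes. Such genes encode receptors of sensory neurons in the nose. Without them chromosome 7 had 12.2 genes per Mb and chromosome 2 had 8.66, and the Pearson correlation was 0.839; this count was chosen after the values of chromosomes 7 and 2 were seen.

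**Figure D5:**
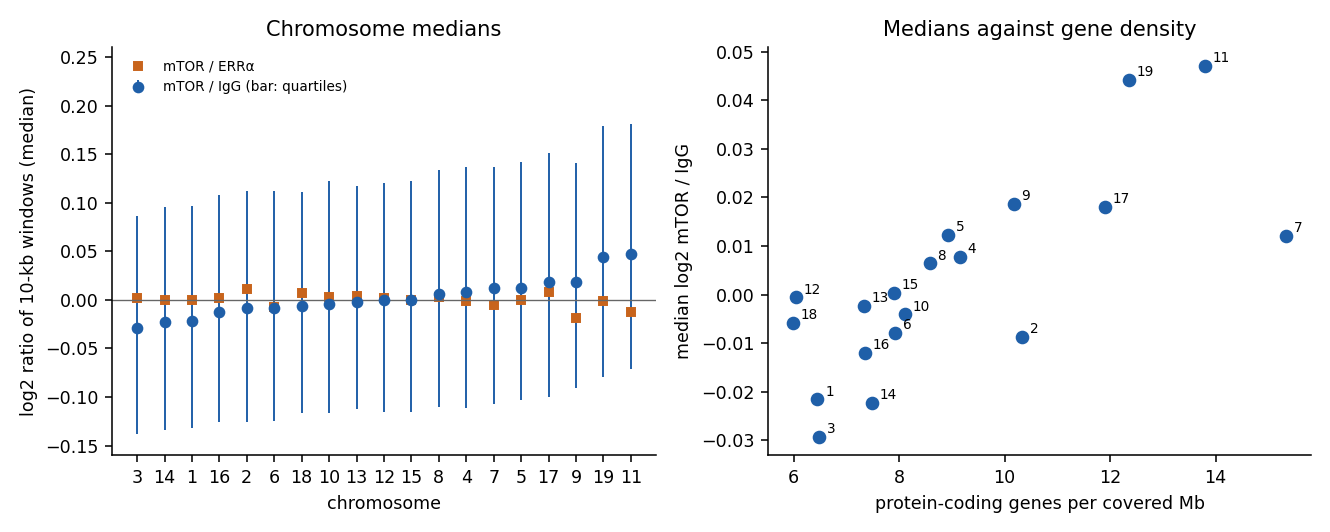
Left, median log2 ratio of 10-kb windows per autosome (vertical axis), ordered by mTOR over IgG, with bars for the quartiles and orange squares for mTOR over ERRα; right, median log2 mTOR over IgG against protein-coding genes per covered Mb. Medians run from -0.029 on chromosome 3 to 0.047 on chromosome 11, and chromosome 7 lies to the right of the others at 15.3 genes per Mb.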

How the data were processed

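Coverage tracks of the mTOR ChIP, the ERRα ChIP and IgG were used. The deposited values are signal, tag coverage scaled by the authors to 10000000 tags per the file headers, in steps of 0.1; runs of positions share a value, and sparse sequence is covered by long runs. Per the submitters' processing notes, BWA 0.5.9, MACS 1.4.1 and build mm9 were used, with no role for each. Summed coverage was 149 to 150 bp per tag, from which tags per window were approximated; how duplicates were treated is not stated in the labels or headers.

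Coverage was averaged in 200-bp bins and summed into windows of 10 kb, 100 kb and 1 Mb. Log2 ratios had no pseudocount, were centred on the median window, and 3 windows of 10 kb with no mTOR coverage were left out of standard deviations. The files held signal from 1 library a group, so no test was run. Intervals are exact binomial (Clopper-Pearson, 95%) on approximate tags. Expected counting SDs came from the reciprocals of the tag numbers. The domain search was tested on simulated data with planted domains longer than most of those called. Recovery was required only for planted steps larger than 1.1-fold, and not at the 1.1-fold step itself. Stretches with missing windows can be broken up by the search.

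Named windows were the 5 highest and 5 lowest of 1 Mb, the 5 highest and lowest of 10 kb without focal regions, and the 5 longest and 5 most extreme domains in each direction; the 5 highest of 1 Mb without focal regions were added after their values were seen. The windows, rules and lists were chosen with earlier results of these data known. No mm9 sequence or annotation was used, so genes inside windows were not named. Alternatives were other coverage limits, folds, centring, controls, running statistics and a pseudocount. Python 3.11.15, NumPy 2.4.6, pandas 2.3.3, SciPy 1.17.1 and Matplotlib 3.10.9 were used.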

Additional observations from a re-analysis of the deposited data

How the results depend on the processing

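No paired analysis was possible because each group has 1 library, and for the same reason no replicate could be left out. Of 84 recomputed counts and differences, 47 stayed within 1.5 times the main count or within counting error. Limits on IgG bins changed little: the 1-Mb difference in log2 ratio between the groups of highest and lowest IgG (10 equal groups), 0.199 in the main setting, was 0.193 without an upper limit and 0.203 with a limit of 5. Windows at least 95% covered gave 60 lower 1-Mb windows and a difference of 0.209, and 4 of the 5 highest 1-Mb windows, all but chr11:68000001-69000000, were left out by this limit; windows at least 50% covered gave a 10-kb difference of 0.042. Without focal regions 164 windows of 1 Mb were higher and 14 lower, and the differences were 0.035 at 10 kb and 0.179 at 1 Mb. With 0.2 added to both levels, which by construction draws ratios towards 1, 7271 windows of 10 kb were higher and 710 lower, 160 of 1 Mb were higher and 0 lower, there were 312 gain domains and 1 loss domain, and the differences were 0.023 at 10 kb and 0.144 at 1 Mb.

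With the ERRα ChIP as the control, 8402 windows of 10 kb were higher and 12288 lower. At 1 Mb 24 were higher and 22 lower, and 20 gain and 64 loss domains were called. The 64 losses count above as unchanged beside the main 71, but only in number. Over IgG, mTOR was at 0.994-fold or more in each of them. The differences by IgG group turned to -0.043 at 10 kb and -0.045 at 1 Mb, and 3 of the 5 lowest 1-Mb windows changed sign: chr2:111000001-112000000 to 0.066, chr2:140000001-141000000 to 0.0043 and chr2:99000001-100000000 to 0.024. Without centring 10374 windows of 10 kb and 219 of 1 Mb were lower, 329 gain and 398 loss domains were called, and 2 autosomes lay above 0, against 9 when centred. Stricter folds left 2852 higher and 279 lower windows of 10 kb at 1.5-fold, and 14 and 0 of 1 Mb with 17 gain and 0 loss domains at a step of 25% up or 20% down. A running mean over 5 windows gave 285 gain and 9 loss domains, and a running median 435 and 92. Leaving out 10-kb windows with an IgG level under 0.3, chosen after seeing the data, gave 13709 higher and 5912 lower windows. The cause of these changes was not tested except where a setting moves values by its construction. Depth limits single 10-kb windows, whose counting SD is 0.13 in log2 ratio.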

Other observations

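The ends of the chromosomes, whose windows are part of the comparisons above, were also taken on their own. Mouse autosomes have their centromere at the start of the sequence. In the last 5 Mb of each autosome the median log2 mTOR/IgG of 10-kb windows was 0.034, above 0 on 14 of 19 chromosomes, at a median IgG level of 0.636. In the first 5 Mb it was -0.00020, above 0 on 9 of 19, at an IgG level of 0.590. Elsewhere it was -0.0014 at an IgG level of 0.600. Chromosome medians ranged from -0.10 to 0.17 in the last 5 Mb and from -0.091 to 0.19 in the first 5 Mb, so the ends differed more among chromosomes than on average from the rest.

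The lowest windows of 10 kb were mostly thinly covered. The lowest 3, chr4:122200001-122210000, chr7:7660001-7670000 and chr14:4170001-4180000, had no listed mTOR coverage against 0.131, 0.0834 and 0.0988 in IgG; positions are listed from a value of 0.1 upwards, so a listed absence can be a low level. The next, chr14:4270001-4280000 and chr11:48860001-48870000, were at 0.0646-fold (0.0135 to 0.209) and 0.126-fold (0.0357 to 0.287), with ERRα at 0.0706 and 0.0465 against IgG at 0.110 and 0.106. With focal regions in, 98 of the 100 lowest 10-kb windows had an IgG level under 0.3, as did 2 of the 100 highest, and 1.56% of all.

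On the high side, with focal regions left out, chr5:92970001-92980000 was at 3.22-fold and chr12:41990001-42000000 at 2.23-fold, at IgG levels of 0.162 and 0.194. The window on chromosome 12 held no focal region: mTOR coverage was 0.420, ERRα 0.225 and IgG 0.194, with a counting interval of 1.72 to 2.91 that does not cover the rounding of values to 0.1. Then came chr13:35100001-35110000 at 2.00-fold, chr9:44290001-44300000 at 1.99-fold and chr6:51120001-51130000 at 1.97-fold. In chr9:44290001-44300000, 3 focal regions and their flanks took 50.0% of the bins, and mTOR coverage was 1.29 with them and 1.33 without them.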
